A study of Mus musculus with 5 samples.

Results

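The 9 genes described here encode the NF-kB transcription factors and proteins that regulate them. These are the subunit genes Nfkb1, Nfkb2, Rel, Rela and Relb and the inhibitor gene Nfkbia. Nfkbiz and Bcl3 encode nuclear proteins of the same IkB family, and Tnfaip3 encodes a ubiquitin-editing enzyme. All were chosen by symbol, as 9 of the 21774 protein-coding genes of the RefSeq annotation. DNaseI-seq, which lists the DNaseI hypersensitive sites (DHSs) where chromatin is open to the nuclease, was analysed for 5 stages of blood development from mouse embryonic stem cells. All stages came from a 129 strain line in which GFP reports the mesodermal factor Brachyury (Bry) and which was grown on mouse embryonic fibroblast feeders. Mesoderm (MES) was sorted as Bry:GFP+ Flk1- cells and hemangioblast (HB) as Bry:GFP+ Flk1+ cells. Hemogenic endothelium (HE) was sorted as CD41- cells positive for Tie2 and cKit, and its label adds Bry.GFP+. Hematopoietic progenitors (HP) were CD41+, and macrophages (MAC) were CD11b+ cells made by terminal differentiation of the CD41+ population. Each stage had 1 list of sites. For MAC the label speaks of 2 replicates, and 1 list was analysed. No difference between stages could therefore be set against a spread between replicates, and none was tested. A stage without a site is a stage in which none was listed, which does not show that the chromatin was closed.

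NF-kB dimers are held in the cytoplasm of resting cells by inhibitor proteins of the IkB family. Signals from cytokine and Toll-like receptors activate a kinase complex that marks the inhibitors for destruction, and the freed dimers enter the nucleus and bind κB sites in DNA. Among their best known targets are the genes of their own subunits, of IkB proteins and of Tnfaip3. The products of Nfkbia and Tnfaip3 close feedback loops that end the response. In macrophages the pathway drives the inflammatory response to microbial products.

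From MES to MAC the lists held 21949, 24729, 33305, 17734 and 37456 sites, with median widths of 800, 900, 1200, 900 and 600 bp. The study reports the same numbers of sites for MES, HB, HE and HP and a lower one for MAC. Promoter sites of marker genes were used to check the labels. All 6 macrophage markers had one in MAC and 1 of them, Cd68, also had one in each other stage. From MES to MAC, the 5 markers of hemogenic endothelium had a promoter site in 1, 2, 5, 3 and 0 cases, so most in HE. The 4 mesoderm markers had one in 4, 4, 3, 0 and 0 cases, the 4 hemangioblast markers in 3, 4, 4, 4 and 3, and the 5 progenitor markers in 1, 1, 4, 3 and 3, with none in HP for Gfi1b and Myb. The last 3 groups thus did not single out their own stage. Of 6 fibroblast markers, included for the feeder cells, 3 had a promoter site in each of MES, HB and HE, 1 in HP and 0 in MAC, while Dcn, Col3a1 and Postn had none in any stage.

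The promoters of 4 members are shown first, because they held exact matches before the gene's start to the classical κB consensus, a 10-base pattern searched on both strands, inside a region listed in all 5 stages. RefSeq promoter sequences of GRCm38 were matched for 6 of the 9 genes, and Nfkb1, Relb and Nfkbiz had no entry. The 250 bases before the start of Nfkb2 (its first of 3 entries), Rel, Nfkbia and Tnfaip3 (its first of 2) are shown from 5′ to 3′ on the strand of the gene. Capitals mark the matches, and overlapping matches form 1 place.

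Nfkb2, chr19:46304487-46304736, plus strand: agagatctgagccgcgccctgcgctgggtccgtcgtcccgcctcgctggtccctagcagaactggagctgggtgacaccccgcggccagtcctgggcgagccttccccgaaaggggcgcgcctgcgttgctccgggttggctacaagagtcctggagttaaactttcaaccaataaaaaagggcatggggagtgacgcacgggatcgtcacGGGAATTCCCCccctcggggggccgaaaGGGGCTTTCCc
Rel, chr11:23770970-23771219, minus strand: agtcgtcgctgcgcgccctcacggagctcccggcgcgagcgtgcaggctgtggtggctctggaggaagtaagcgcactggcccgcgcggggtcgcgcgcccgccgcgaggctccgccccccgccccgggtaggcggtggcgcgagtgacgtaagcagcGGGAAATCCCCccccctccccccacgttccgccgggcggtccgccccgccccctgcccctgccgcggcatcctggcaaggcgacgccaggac
Nfkbia, chr12:55492648-55492897, minus strand: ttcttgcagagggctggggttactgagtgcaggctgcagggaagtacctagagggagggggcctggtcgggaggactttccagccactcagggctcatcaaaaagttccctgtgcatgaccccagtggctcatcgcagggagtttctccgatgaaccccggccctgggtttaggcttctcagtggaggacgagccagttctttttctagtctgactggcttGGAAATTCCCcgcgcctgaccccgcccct
Tnfaip3, chr10:19015411-19015660, minus strand: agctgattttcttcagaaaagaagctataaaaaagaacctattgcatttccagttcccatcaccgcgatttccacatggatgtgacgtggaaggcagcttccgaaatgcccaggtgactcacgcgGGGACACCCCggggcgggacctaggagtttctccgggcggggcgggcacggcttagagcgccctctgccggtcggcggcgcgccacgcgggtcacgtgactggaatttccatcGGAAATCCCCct

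Nfkb2 had 2 places, from 39 to 29 and from 11 to 2 bases before its start. Rel had 1, from 92 to 82 bases before the start, Nfkbia 1, from 29 to 20 bases before it, and Tnfaip3 2, of which one ended 116 bases before it and the other lay from 12 to 3 bases before it. The Bcl3 entry had a match just after the start, and the Rela entry had none. In all, 7 of the 9 entries of members held a match, where 4.51% of the 32851 RefSeq promoter sequences of the same length of 300 bases did. The 9 entries share genes, and 2 of those of Nfkb2 overlap. The second Tnfaip3 entry had a GC content of 47.0% and the others 56.7 to 75.0%. The median of all RefSeq promoter sequences was 52.7%. The part of base composition in this contrast was not tested.

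To determine when the promoters of these genes were open, a site within 1 kb of any annotated transcription start site (TSS) of a gene was called a promoter site. The NF-kB genes had such sites from mesoderm onwards. A promoter site was found in MES for 7 of the 9 genes, where 55.5% of all protein-coding genes had one. The HB list gave 7 as well (57.1% of all genes), the HE list 9 (59.9%), the HP list 7 (48.6%) and the MAC list 8 (48.7%). Nfkb2, Rel, Rela, Relb, Nfkbia, Nfkbiz and Tnfaip3 had one in all 5 stages, as did 42.0% of all genes. The exceptions were Nfkb1 and Bcl3.

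Nfkb1 (chr3:135584655-135691969, minus strand) encodes the precursor of a DNA-binding subunit that lacks a transactivation domain. Its promoter was listed in HE alone, a pattern found for 3.03% of all genes. The HE site was 1600 bp wide and covered the curated TSS. The next site beyond 1 kb lay 2900 bp from a TSS in HB and 8559 bp in MES, while those of HP and MAC lay 20015 and 39247 bp away, so this call did not hang on the limit of 1 kb. The region had a GC content of 79.8%, the highest of the 10 promoter regions of these genes, and whether base composition bears on its absence from 4 lists was not tested.

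Bcl3 (chr7:19808462-19822824, minus strand) encodes a nuclear IkB protein that partners NF-kB subunits on DNA. It had a promoter site in HE and MAC only, as did 0.744% of all genes, but here the limit decided the pattern. The sites upstream of the gene ended 303 bp from a TSS in HE and 386 bp in MAC, while those of MES, HB and HP ended 1057, 1135 and 1053 bp from it. With a reach of 2 kb the gene had a promoter site in all 5 stages and with a reach of 250 bp in 0. When the deposited intervals themselves were merged, the 5 sites formed 1 region centred 1.17 kb upstream. The HE and MAC sites were 1400 and 1300 bp wide and those of the other 3 stages 900 bp.

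The other promoters differed between stages mainly in the width of their sites. At Rel (chr11:23736847-23770969, minus strand), whose product c-Rel is a transactivating subunit found mainly in blood cells, the site was 1400, 1700, 2000, 1400 and 1300 bp wide from MES to MAC. At Rela (chr19:5637442-5648134, plus strand), the gene of the most widely expressed transactivating subunit, the widths were 1100, 1200, 1400, 1000 and 800 bp in the same order. The HE site was the widest at both genes and the MAC site the narrowest.

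Relb (chr7:19606217-19629438, minus strand), which encodes a transactivating subunit of the non-canonical pathway, had promoter sites of 1600, 1500, 1700, 1500 and 1300 bp from MES to MAC. Those of Nfkb2 (chr19:46300994-46312400, plus strand), whose product is processed in the same pathway, were 1700, 1800, 1900, 1700 and 1900 bp wide. Those of Nfkbia (chr12:55489409-55492647, minus strand), the gene of the inhibitor IkB alpha, were 1100, 1300, 1600, 1400 and 1300 bp wide. At Nfkb2 the MAC site was as wide as the HE site, and at the other genes with sites in all 5 stages HE alone had the widest site.

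Nfkbiz (chr16:55811375-55838954, minus strand) encodes an inducible nuclear IkB protein that acts as a cofactor at inflammatory genes. It had a promoter site at each of 2 promoters in every stage. The site at the upstream promoter was 700 bp wide in MES, HB, HP and MAC and 1500 bp in HE, and the site at the inner promoter was 900, 1100, 1500, 1000 and 900 bp wide. Tnfaip3 (chr10:19000910-19015410, minus strand), which removes activating ubiquitin chains from signalling proteins, had promoter sites of 1200, 1200, 1600, 1100 and 1100 bp. The HE list had the widest sites in general, with a median of 1200 bp over all its sites, so the wider promoter sites in HE stand beside a difference of the whole list.

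**Figure D1:**
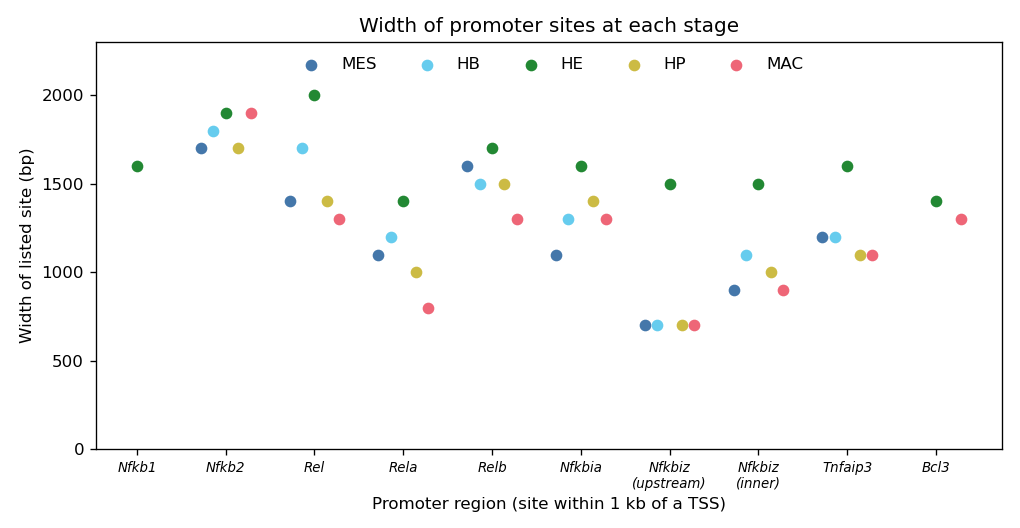
Width in bp of the listed site at each promoter region of the 9 genes, with 1 point per stage and no replicates. Nfkb1 has a point in HE only and Bcl3 in HE and MAC only, and the HE points lie from 1400 to 2000 bp.

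To follow the sites around the promoters as well, a site was also assigned to a gene when it lay inside it or up to 100 kb from its TSS and no other protein-coding gene had a nearer TSS. The 9 genes then held 19, 19, 25, 18 and 53 sites from MES to MAC, with no site shared between them. Per 10000 sites of the list these were 8.66, 7.68, 7.51, 10.15 and 14.15. MAC supplied 27.7% of all sites and 39.6% of the sites of these genes. Over the stretches of chromosome in which a site would go to a gene, the 9 genes had 2.35, 2.35, 3.09, 2.22 and 6.54 sites per 100 kb, and all protein-coding genes 1.26, 1.39, 1.82, 1.04 and 2.02. The ratio of the members to all genes was 1.68 to 2.14 in the first 4 stages and 3.23 in MAC.

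The number of sites in MAC split the genes. From MES to MAC, Tnfaip3 had 1, 1, 4, 4 and 12 sites. Nfkbiz had 2, 2, 4, 2 and 11. Nfkbia had 3, 3, 4, 1 and 8. These genes thus had their highest count in MAC, as did 2 subunit genes.

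Rel had 1 site in each of the first 4 stages, its promoter, and 7 in MAC. Nfkb1 had 2, 4, 4, 3 and 6. These 5 genes had 6 or more MAC sites, which 6.03% of all protein-coding genes had. As many MAC sites as Tnfaip3 were found for 0.73% of all genes, as many as Nfkbiz for 1.07%, as Nfkbia for 2.94%, as Rel for 4.14% and as Nfkb1 for 6.03%. For the other members the share was 13.3% for Bcl3, 35.9% for Nfkb2 and Rela and 64.6% for Relb.

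The other 4 genes had 1 to 4 sites in each stage. Nfkb2 had 2 in every list, one at the promoter and one 3.21 kb downstream of the TSS in an intron. Rela had 2, 3, 2, 2 and 2, Relb 2, 1, 2, 1 and 1, and Bcl3 4, 2, 2, 2 and 4. A site near Nfkb2, Rela, Relb or Bcl3 had to fall within a stretch of 27.6, 26.34, 32.91 or 27.63 kb, because neighbouring genes were close. The stretches of Nfkb1, Rel, Nfkbia, Nfkbiz and Tnfaip3 measured 166.0, 114.4, 83.19, 145.0 and 186.9 kb. In MAC a low count and a short stretch thus went together. In MES they did not, since Rel and Tnfaip3 had 1 site each and Bcl3 had 4. Per 100 kb of its stretch Bcl3 had 14.5 MAC sites, above Nfkbia with 9.62, Nfkbiz and Rela with 7.59 each, Nfkb2 with 7.25, Tnfaip3 with 6.42, Rel with 6.12, Nfkb1 with 3.61 and Relb with 3.04. The value of Bcl3 rests on 4 sites. Those of 500 and 300 bp lay inside a stretch that HE listed as 1 site of 2000 bp.

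The counts fell when the lists were made equal in length. When each list was shortened to its 17734 widest sites, the length of the HP list, the 9 genes held 17, 14, 15, 18 and 24 sites from MES to MAC, or 9.59, 7.89, 8.46, 10.1 and 13.5 per 10000 sites. The MAC list kept 47.3% of all its sites and 45.3% of those of the 9 genes. MAC then had 5 sites each at Tnfaip3, Nfkbiz and Nfkbia, 2 each at Nfkb1, Rela and Bcl3 and 1 each at Rel, Nfkb2 and Relb. Rel thus kept a single MAC site, and its 6 other MAC sites were 200 to 500 bp wide. The choice of the nearest gene mattered for Rel as well, since 4 MAC sites were left when distance was taken to the gene body in place of the TSS. Tnfaip3 had 7 MAC sites when the limit was 50 kb, and Nfkb2 had 4 when only curated transcripts gave TSS.

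**Figure D2:**
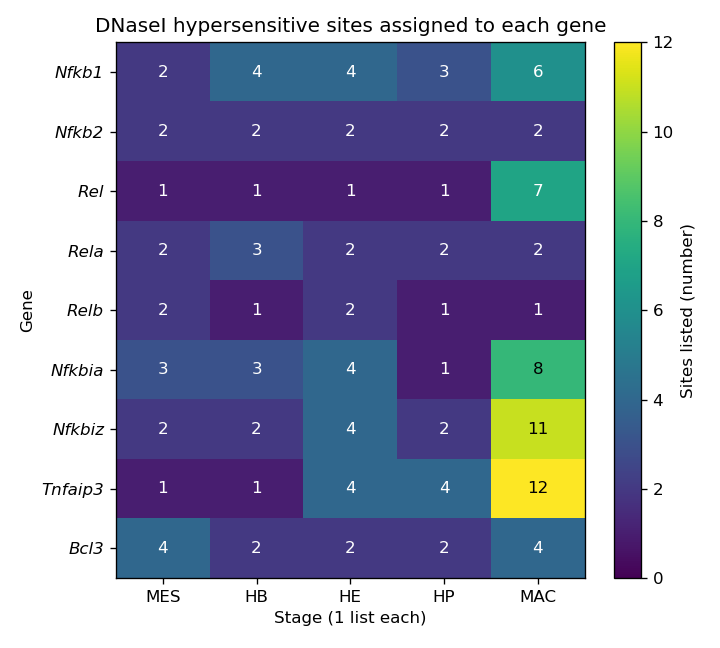
Number of listed sites assigned to each of the 9 genes (rows) at each stage (columns, 1 list each), with the number written in each cell. MAC has the highest count for Nfkb1, Rel, Nfkbia, Nfkbiz and Tnfaip3, up to 12 at Tnfaip3.

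**Figure D3:**
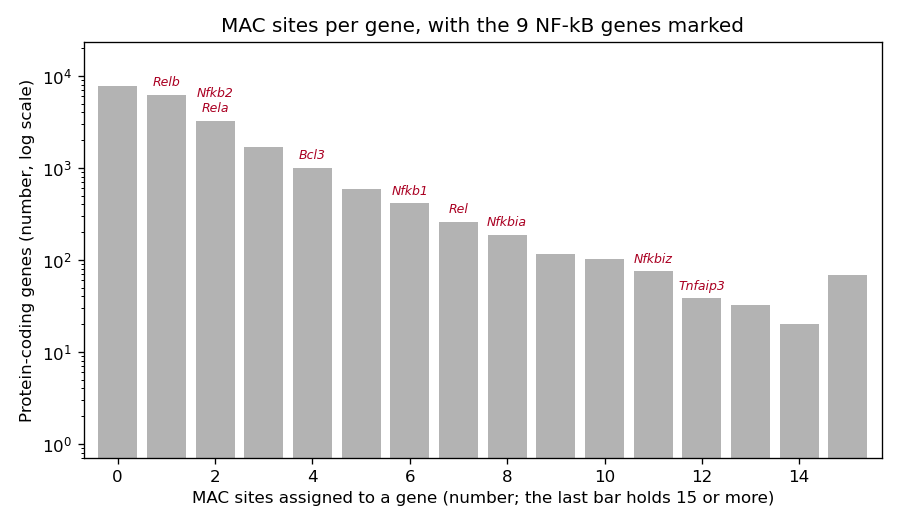
Number of protein-coding genes (log scale) by their number of MAC sites, with the 9 genes written above the bar they belong to. Relb stands at 1 site and Nfkb2 and Rela at 2, and Nfkbiz and Tnfaip3 at 11 and 12 sites.

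To see which sites were shared between stages, each site was set to 500 bp around its middle and windows that overlapped by the minimum the study used were merged. The 134 sites formed 68 regions, of which 10 held a promoter site. Regions listed in MAC only numbered 32, or 47.1%, where 31.0% of all 68846 merged regions had that pattern. Regions listed in all 5 stages numbered 10, or 14.7%, against 13.2% of all regions. Another 6 regions, 8.82%, were listed in HE and MAC only, a pattern of 3.48% of all regions. Regions listed in HE only numbered 2, or 2.94%, where 17.1% of all regions had that pattern. With the lists shortened to the widest sites, 13 of the members' 41 regions were MAC only, 31.7% against 20.5% of all regions under the same setting, and 1 was HE and MAC only, 2.44% against 1.10%.

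The MAC-only regions belonged to 6 genes. Tnfaip3 had 9, Nfkbiz 8, Rel 6, Nfkb1 and Nfkbia 4 each and Bcl3 1. None was assigned to Nfkb2, Rela or Relb. By place, 22 were intergenic, 8 lay in introns, 1 in a coding exon of Nfkb1 and 1 in an exon of the noncoding gene Gm34891. They lay 2.53 to 96.9 kb from the nearest TSS of their gene, with a median of 35.8 kb, 12 upstream and 20 downstream. Their median width of 500 bp was also that of all MAC-only regions.

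At Tnfaip3 the MAC-only regions lay between 79.1 kb upstream and 80.4 kb past the TSS. The nearest lay 2.53 kb downstream, in an intron at chr10:19009181-19009680. Upstream of the gene, 3 regions were listed before the macrophage stage. The region 66.8 kb upstream was listed in HE and HP, that 47.0 kb upstream in HE, HP and MAC, and that 30.9 kb upstream in HP only. MES and HB had no site assigned to Tnfaip3 besides the promoter, and their next sites lay 166601 and 146737 bp away.

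At Nfkbiz, 2 MAC-only regions lay upstream, 14.2 and 24.7 kb from the TSS in introns of the neighbouring gene Nxpe3, and 1 in an intron of Nfkbiz itself. The other 5 were intergenic, 23.1 to 74.8 kb downstream of the inner promoter. A region 88.0 kb downstream was listed in HE and MAC, and one 14.4 kb downstream in HE only. Outside its promoters Nfkbiz had no assigned site in MES, HB or HP.

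At Rel the promoter was listed in all 5 stages and each of the 6 other regions in MAC only. None of these 6 was left when the lists were restricted to wider sites, by either rule. Of these, 4 lay 23.2 to 52.5 kb upstream, 1 in an intron 16.5 kb downstream of the TSS, and 1 36.6 kb downstream, past the end of the gene. The nearest site beyond the promoter lay 84348, 84338, 84342 and 104406 bp away in the first 4 stages.

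Nfkbia had regions of several patterns close to the gene. One 2.74 kb upstream was listed in MES, HB and MAC and one 6.59 kb upstream in MES, HB and HE, both in exons of the noncoding gene Gm36634. Downstream, a MAC-only region of 1100 bp lay 3.92 kb from the TSS, and those 18.7 and 45.4 kb away were listed in HE and MAC. HP had the promoter site alone, with the next site 93240 bp away.

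At Nfkb1 most regions lay inside the gene, and 6 of its 12 regions, the promoter among them, were absent from the MAC list. Single-stage intronic regions lay 3.25 and 54.6 kb from the TSS in HB, 8.76 kb in MES and 20.2 kb in HP, and a region 49.8 kb from it was listed in HB, HE and HP. The 4 MAC-only regions lay 62.6 to 96.9 kb from the TSS, toward the end of the gene, beside a region at 94.1 kb listed in HE and MAC. The only region of Nfkb1 listed in all 5 stages was intergenic, 39.4 kb upstream. The MAC and non-MAC regions inside the gene thus did not interleave.

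Rela had a region 7.38 kb upstream listed in MES and HB and a region 11.0 kb downstream, past the end of the gene, listed in every stage but MES. Relb had 1 intronic region 4.21 kb downstream, listed in MES and HE. Bcl3 had intronic regions 5.11 and 6.26 kb downstream listed in MES and MAC, and one between them, at 5.76 kb, in HB, HE and HP. The deposited intervals of these 3 overlapped and merged into 1 region listed in all 5 stages. MES and MAC each listed separate, narrower sites where HB, HE and HP listed 1 wide site. The split thus came from these lists and from placing windows at the middle of wide and narrow sites. The single MAC-only region of Bcl3 lay 8.54 kb upstream.

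**Figure D4:**
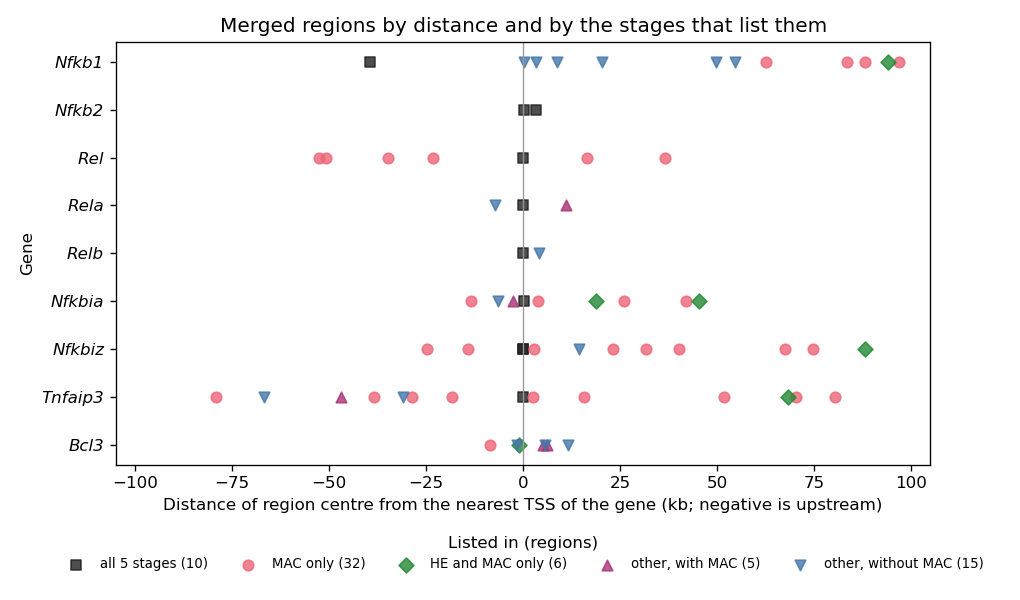
Each of the 68 merged regions at the distance in kb of its centre from the nearest TSS of its gene (negative is upstream), with colour and shape for the stages that list it. MAC-only regions spread on both sides of Rel, Nfkbiz and Tnfaip3, and inside Nfkb1 they lie from 62.6 kb onwards, past the regions without MAC.

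To describe the DNA in these regions, the κB consensus was searched in the central 500 bp. It was found in 15 of the 68 regions, 22.1%, where 7.57% of all merged regions had a match. Of the 10 regions listed in all 5 stages, 5 (50.0%) had a match, against 9.14% of all such regions. Of the 32 MAC-only regions, 4 (12.5%) had one, against 5.09%. Promoter regions had it in 6 of 10, 60.0%, where 9.82% of all promoter regions did, and the other regions in 9 of 58, 15.5%, where 6.83% of all others did. The median GC content was 67.5% in the members' regions listed in all 5 stages and 63.2% in all such regions, and 43.9% and 46.4% in the MAC-only regions. The part of base composition in these shares was not tested.

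The promoter matches belonged to the regions of Nfkb1, Nfkb2, Rel, Nfkbia, Nfkbiz (its upstream promoter) and Tnfaip3. The promoter regions of Rela and Relb, the inner promoter of Nfkbiz and the HE and MAC region of Bcl3 had none in the central 500 bp. At Bcl3 this follows from the window, since the HE and MAC sites as deposited both contain the match at chr7:19824356-19824365 that is shown for the neighbouring region. The matches outside promoters are shown with 25 bases on each side, on the strand of the gene and with the match in capitals, since they show where the members' open regions held a match away from a promoter. The first 4 were in MAC-only regions: an intron of Rel, the downstream flank of Nfkbia, an intron of Nxpe3 upstream of Nfkbiz and an intron of Tnfaip3. The other 5 were in the region downstream of Rela listed in every stage but MES, in the region 2.74 kb upstream of Nfkbia, in the HP-only region of Tnfaip3, upstream of Bcl3 and in an intron of Bcl3.

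Rel, chr11:23754392-23754452, minus strand: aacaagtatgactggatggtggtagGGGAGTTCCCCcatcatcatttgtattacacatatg
Nfkbia, chr12:55488806-55488865, minus strand: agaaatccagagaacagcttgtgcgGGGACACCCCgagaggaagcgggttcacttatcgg
Nfkbiz, chr16:55853103-55853162, minus strand: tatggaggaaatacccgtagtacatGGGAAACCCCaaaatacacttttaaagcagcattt
Tnfaip3, chr10:19009406-19009465, minus strand: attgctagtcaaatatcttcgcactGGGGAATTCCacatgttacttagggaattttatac
Rela, chr19:5648921-5648980, plus strand: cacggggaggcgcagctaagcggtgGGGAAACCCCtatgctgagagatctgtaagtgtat
Nfkbia, chr12:55495330-55495389, minus strand: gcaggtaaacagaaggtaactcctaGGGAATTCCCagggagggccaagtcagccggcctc
Tnfaip3, chr10:19046366-19046425, minus strand: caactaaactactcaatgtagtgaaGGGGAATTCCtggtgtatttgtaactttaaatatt
Bcl3, chr7:19824331-19824390, minus strand: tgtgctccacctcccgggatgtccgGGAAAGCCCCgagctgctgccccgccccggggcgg
Bcl3, chr7:19817605-19817664, minus strand: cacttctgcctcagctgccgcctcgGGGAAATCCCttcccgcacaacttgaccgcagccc

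Motifs of other factors were searched in the same windows on both strands, and matches of different motifs were allowed to overlap. In the 32 MAC-only regions the RUNX motif TGTGGT was found in 17 (53.1%, against 41.2% of all MAC-only regions), the CEBP motif TTGCNNAA in 12 (37.5% against 30.3%) and the PU.1 motif GAGGAAGT in 3 (9.38% against 14.5%). The AP-1 motif TGANTCA was found in 4 (12.5%), against 33.5% of all MAC-only regions. The GATA motif AGATAA was in 7 (21.9% against 20.7%), the TEAD motif CATTCC in 5 (15.6% against 23.4%) and the CRE motif TGACGTCA in 0 (0.828% of all MAC-only regions). In the 10 regions listed in all 5 stages, AP-1 was found in 3 (30.0% against 7.80%), PU.1 in 2 (20.0% against 3.92%), RUNX in 2 (20.0% against 18.1%) and TEAD in 2 (20.0% against 17.2%). GATA, CEBP and CRE were found in 0, against 7.37%, 11.2% and 4.53% of all such regions. Over all 68 regions of the members the shares were 22.1% for AP-1 (22.7% of all merged regions) and 11.8% for PU.1 (8.25%). RUNX had 42.6% (33.2%), CEBP 27.9% (20.4%), GATA 20.6% (23.0%), TEAD 22.1% (26.7%) and CRE 0% (1.42%). A match is a description of the sequence and does not show that a factor was bound.

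**Figure D5:**
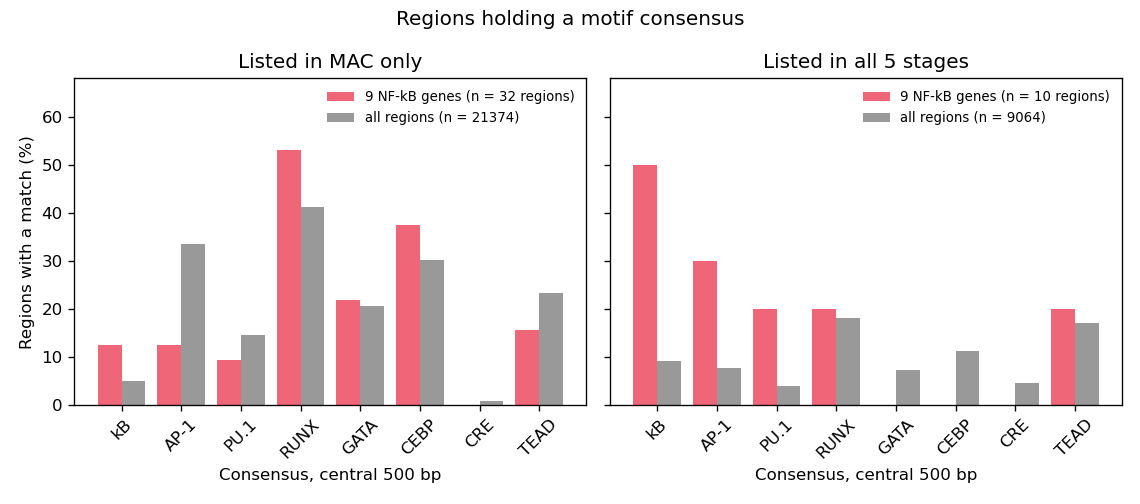
Percentage of regions whose central 500 bp holds each consensus, for regions of the 9 genes (red) and all regions of the same pattern (grey), listed in MAC only (left) or in all 5 stages (right). The κB bars of the members are the taller ones in both panels, at 12.5% and 50.0%, and the AP-1 bar in MAC-only regions is 12.5% against 33.5%.

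The rest of the pathway was described with a list of 43 genes. From MES to MAC, promoter sites were found for 34, 35, 38, 33 and 38 of them, where 55.5, 57.1, 59.9, 48.6 and 48.7% of all protein-coding genes had one. All 5 stages had one for 30 of the 43, against 42.0% of all genes. Among the kinases, 6 of 7 had one in every stage, the exception being Ikbke, which encodes an inducible IKK-related kinase and had no promoter site in any stage but 7 assigned sites in MAC. Of the 10 other inhibitors 9 did, the exception being Tnip3, which encodes a partner of Tnfaip3 and had a promoter site in MAC only. Adaptors and ligases had one in all stages for 13 of 18 genes: Traf3 lacked it in HB, Traf6 and Birc3 in MES, Irak1 in MES and HP, and Traf1 in every list.

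Among these groups the receptors differed most between stages, with 2 of 8 (Cd40 and Ltbr) listed at the promoter throughout, as were 42.0% of all genes. Tlr4, the receptor of bacterial lipopolysaccharide, had a promoter site in HE and MAC, and Tlr2 in all stages but HP. The TNF receptor gene Tnfrsf1a had one in MES, HB and HE and Tnfrsf1b in HE only, Il1r1 in MES and MAC, and Tnfrsf11a in none. The 43 genes held 59, 62, 87, 51 and 167 sites from MES to MAC, a mean of 1.37, 1.44, 2.02, 1.19 and 3.88 per gene against 1.02, 1.13, 1.48, 0.84 and 1.64 for all protein-coding genes. MAC had more sites than each other stage at 26 of the 43 genes and at 5 of the 9 members, as it did at 22.3% of all protein-coding genes.

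Some genes outside the pathway had nearly the same profile of counts. The likeness was measured as the sum of absolute differences in assigned sites over the 5 stages, for the 3 members with most sites. Bin1 had the same 5 counts as Nfkbiz, and Rasgef1b and Prkcd differed from it by 1 site in all. Usp6nl differed from Tnfaip3 by 1 site and Pag1 and Vmp1 by 2. Crtc3, Rnd3 and Stk24 each differed from Nfkb1 by 1. They are 3 of 8 genes tied at that distance, and 4 genes lay within 1 site of Nfkbiz and 4 within 2 of Tnfaip3, with ties settled by the length of the stretch a gene draws sites from. Nfkbia, which had as many sites as Nfkb1, was placed after it by name.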

How the data were processed

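DNaseI-seq of 5 populations was analysed from 1 deposited list each. In the study's methods, the authors used CutAdapt for trimming, Bowtie for alignment to mm10 (GRCm38), unique reads only, Picard against duplicates, and DFilter with 100 bp bins to call sites, without versions. The deposited files give the base-pair bounds of each site and neither a score nor a count, so these lists do not show depth, and the study's read totals were not used here.

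Genes, TSS and bases came from RefSeq GRCm38.p6, with all annotated transcripts used for TSS. Promoter sites, nearest-gene sites (limit of 100 kb, middle of the site to the TSS), merged regions and motif matches were computed as described in the report with Python 3.11.15, numpy 2.4.6, pandas 2.3.3 and pysam 0.24.0. Assignment and merging were tested on 2000 simulated sites against a direct search, with 0 mismatches. The members, the pathway list, the markers and the motifs were chosen with earlier results of these data known. All 9 members were named, as was every pathway gene without a promoter site in at least 1 stage, with 3 genes of closest counts, ties settled by stretch length and then name, for each of 3 members. Pathway genes named for other reasons were chosen after their values were seen. Alternatives in the promoter reach, the TSS set, the gene assignment, the overlap and the width of sites were computed.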

Additional observations from a re-analysis of the deposited data

How the results depend on the processing

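Of 73 recomputed values for the members' promoter counts, assigned sites, regions and κB matches, 61 stayed within 1.5 times the value reported and 12 did not. All 12 came from keeping wider sites only. When sites below their list's median width were left out, the members held 10, 11, 15, 9 and 25 sites from MES to MAC (9.04, 7.80, 8.34, 9.89 and 13.1 per 10000), and 34 regions, of which 14 were MAC only (41.2% against 29.7% of all regions). With each list shortened to its 17734 widest sites they held 15 sites in HE, 24 in MAC, and 41 regions, of which 13 were MAC only and 1 was HE and MAC only. These alternatives use fewer sites by construction, and MAC had the highest count under each. The κB consensus was found in 21 of the 68 regions (30.9%, against 17.4% of all regions) in a looser form and in 10 (14.7% against 3.16%) in the central 200 bp. Of 99 recomputed values for single genes, 19 moved by more than 1.5 times. No paired analysis was possible because each stage had 1 list. Lists without counts or scores set no limit on what was missed.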
